A study of Mus musculus with 59 samples.

Results

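Metabotropic glutamate receptors are the G protein-coupled receptors of the main excitatory transmitter of the brain, and 6 of their genes were followed here: Grm2, Grm3, Grm4, Grm5, Grm7 and Grm8. They were found as the rows of the deposited table whose Ensembl identifier carries the symbol, and they are 6 of 18088 genes in the table. All 6 passed the filter on low values, a normalised count of at least 10 in 4 or more libraries, as did 17891 genes in all. The tissue was prefrontal cortex of C57BL/6J mice taken at postnatal day 25, and 59 libraries of messenger RNA were made with a stranded kit. Mice were heterozygous for Naa15 (HT, 29 libraries) or wild type (WT, 30 libraries). Naa15 encodes the auxiliary subunit of NatA, the main N-terminal acetyltransferase of newly made proteins. The pups received lithium, a mood stabiliser (20 libraries), fluoxetine, a serotonin reuptake inhibitor (20 libraries), or vehicle (19 libraries), through the milk of their mothers from day 3 to day 24. Genotype, treatment and sex made 12 groups of 5 libraries, except HT vehicle males with 4. The labels give neither litters nor the kind of Naa15 allele, so p-values measure the spread between these samples.

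The family has 3 classes. Grm5 belongs to group I, whose receptors sit mainly on the postsynaptic side, couple to Gq and release calcium from internal stores. Grm2 and Grm3 form group II and Grm4, Grm7 and Grm8 belong to group III. Both of these couple to Gi/o, lower cyclic AMP and act largely on presynaptic terminals, where they reduce transmitter release. In cortex the group II receptor of Grm3 is found on astrocytes as well as neurons.

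Positions are those of GENCODE M21 on GRCm38. Grm2 (ENSMUSG00000023192) lies on chromosome 9, 106643095 to 106656082, minus strand. Grm3 (ENSMUSG00000003974) lies on chromosome 5, 9485541 to 9725170, minus strand. Grm4 (ENSMUSG00000063239) lies on chromosome 17, 27422387 to 27521403, minus strand. Grm5 (ENSMUSG00000049583) lies on chromosome 7, 87584168 to 88134907, plus strand. Grm7 (ENSMUSG00000056755) and Grm8 (ENSMUSG00000024211) share chromosome 6, Grm7 at 110645581 to 111567230 on the plus strand and Grm8 at 27275119 to 28135178 on the minus strand. All 6 are protein coding. Grm2 is compact, with a span of 13.0 kb, while the span of Grm7 is 921.7 kb. The GC content of the longest transcript is 61.7% for Grm4 and 56.9% for Grm2, and 41.9% to 47.6% for the other 4.

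The promoters of Grm2 and Grm3, the group II pair, are shown because these genes were lower together in the results that follow. Each run is the 250 bases before the RefSeq start (GRCm38.p6), at chr9:106656110-106656359 and chr5:9725353-9725602, both on the minus strand, with the GC box GGGCGG in capitals.
Grm2: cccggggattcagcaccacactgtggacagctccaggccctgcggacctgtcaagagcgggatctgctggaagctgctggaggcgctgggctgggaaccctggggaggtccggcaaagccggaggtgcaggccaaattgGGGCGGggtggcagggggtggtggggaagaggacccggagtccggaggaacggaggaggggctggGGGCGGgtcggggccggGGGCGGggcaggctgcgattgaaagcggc
Grm3: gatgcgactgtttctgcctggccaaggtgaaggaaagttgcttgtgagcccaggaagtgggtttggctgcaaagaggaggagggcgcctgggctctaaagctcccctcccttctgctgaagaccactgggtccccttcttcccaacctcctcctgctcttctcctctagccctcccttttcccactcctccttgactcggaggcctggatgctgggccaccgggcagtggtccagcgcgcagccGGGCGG
The Grm2 window holds 3 GC boxes, 16 CpG and 71.2% GC, and the Grm3 window holds 1 GC box, 8 CpG and 62.4% GC. Over all 32851 RefSeq promoters of this length, searched on both strands, 32.7% hold a GC box, the median CpG count is 6 and the median GC content is 52.4%. Neither window matched the cAMP response element TGACGTCA, found in 1.55% of promoters, or TATAAA, found in 12.4%. RefSeq entries were matched for 4 of the 6 genes, Grm2, Grm3, Grm7 and Grm8. Grm4, also lower under lithium, had none. GC boxes were not particular to the group II pair: both Grm7 entries held 1, at 62.0% and 65.2% GC. Of the 3 Grm8 entries the first held 1, with 29 CpG and 68.4% GC, and the others held 0. A match is a description of the letters and no measurement of binding.

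The libraries held 24.99 to 32.87 M reads with a median of 29.11 M, recovered from the deposited values. They fell into separate sets: on the first principal component (14.4% of the variance), 25 libraries, made up of every lithium library and the HT fluoxetine females, lay at -31.6 to -14.9 against -2.74 to 27.6 for the other 34. The same 25 libraries had 6.76% to 10.3% of reads from 15 mitochondrial genes, against 4.96% to 7.83%. They leaned to low-GC genes: the slope was -0.248 to -0.0371 log2 units per 10 percentage points of GC, against -0.0783 to 0.189. Naa15 itself differed by -0.03 ± 0.041 between HT and WT vehicle libraries (SE, adjusted p = 0.895, limma-trend), so its level does not check the genotype labels. By the same test Naa15 was higher in HT than in WT under fluoxetine (0.12 ± 0.040, adjusted p = 0.0149) but not under lithium (-0.03, 0.75). Over both genotypes Naa15 was higher under lithium than under vehicle (0.12 ± 0.029, adjusted p = 0.000363). Cortical excitatory neuron markers were read in every library, while 14 libraries of 9 groups had more than 2 times the median sum of striatal markers (5 libraries) or olfactory bulb markers (9 libraries). Because this is bulk tissue, fewer cells of a type and less RNA per cell cannot be told apart.

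Levels are given per kb of union exon, since longer transcripts collect more reads. Over the 59 libraries Grm3 averaged 624 normalised counts per kb, Grm5 562, Grm2 471, Grm7 292, Grm4 160 and Grm8 52.2. With the longest transcript as the length, Grm5 came first at 716 and Grm3 followed at 624, with Grm2 at 489, Grm7 at 408, Grm4 at 208 and Grm8 at 108, so the order of the top 3 depends on the length used. Grm5 ranked at the 94.6th percentile of tested genes by raw normalised count and Grm8 at the 53.6th. Counting error was small, 1.33% for Grm5 to 4.45% for Grm8, beside a spread within groups of 7.12% for Grm5 to 20.4% for Grm4.

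**Figure D1:**
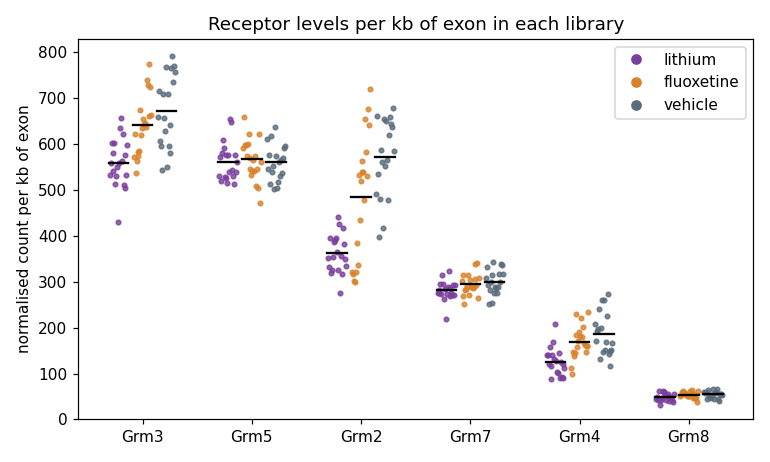
Normalised count per kb of union exon (vertical axis) of each receptor gene in each of 59 libraries, coloured by treatment, with bars at treatment means. Grm3, Grm5 and Grm2 lie highest, Grm8 lowest at 32.3 to 66.7, and the lithium points of Grm2 and Grm4 lie lower than most others.

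The genes divided by the share of their variance that went with the 12 groups. Fitting 12 means to 59 libraries takes up part of the variance even without a group effect. That part was not subtracted, and the share in other genes was not computed. Group means accounted for 81.2% of the variance of Grm2, 70.7% of Grm3 and 63.0% of Grm4, but only 25.0% of Grm5, 26.6% of Grm7 and 27.1% of Grm8. The Grm2 mean was lowest in HT fluoxetine females at 1526 and highest in WT vehicle males at 3133, a ratio of 2.05. For Grm5 the same ratio was 1.12, between HT fluoxetine females at 6193 and WT vehicle females at 5507. When the 12 means of a gene were put in order, 1 of 11 neighbouring pairs differed beyond the SD of both groups for Grm2 and for Grm3, and 0 of 11 for each of the other 4. For Grm2 the 5 lowest means were those of HT fluoxetine females and the 4 lithium groups.

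**Figure D2:**
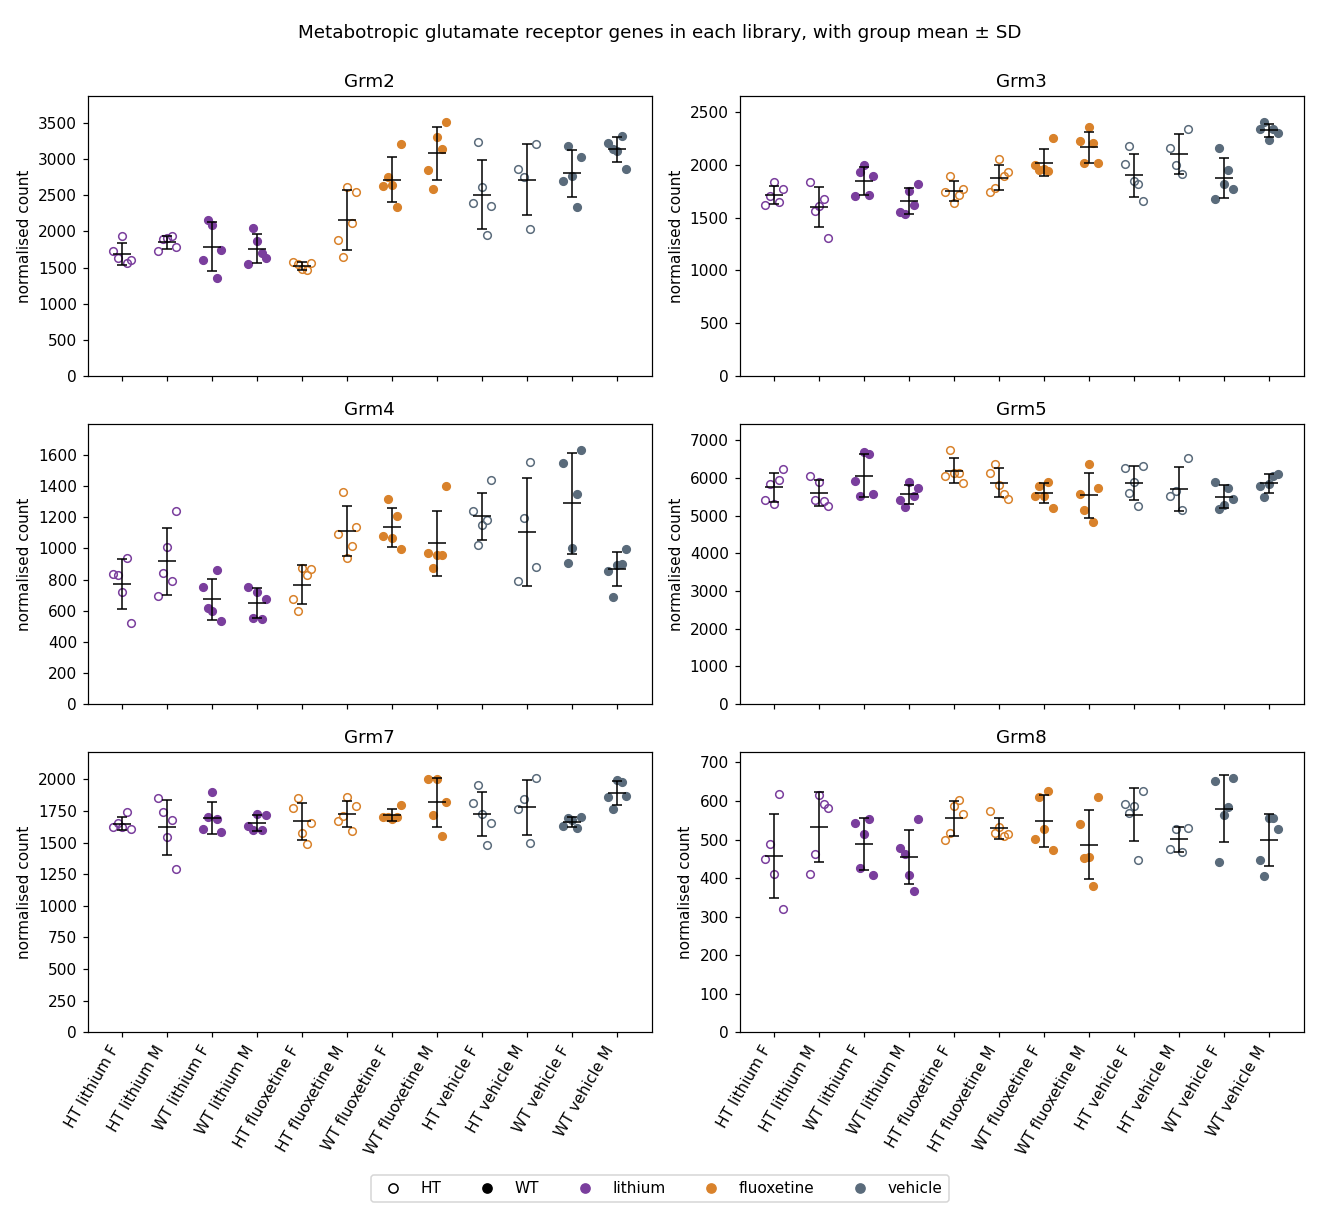
Normalised count (vertical axis, from 0) of each receptor gene in every library, by group, HT open and WT filled, with group mean ± SD. Grm2 is at 1349 to 2157 in the lithium libraries against 1949 to 3325 in vehicle libraries, while the groups of Grm5 lie between 4840 and 6757 throughout.

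The 20 lithium and 19 vehicle libraries of both genotypes were set against each other to ask how the drug changed the receptors whatever the genotype. Both group II genes and all 3 group III genes were lower under lithium, and Grm5 of group I was the exception. These 5 of 6 calls stand beside 30.4% of all tested genes called lower and 63.1% called in either direction, so a call as such was common. The test was limma-trend on log2 of the normalised count plus 1, with Benjamini-Hochberg adjustment over all tested genes and a threshold of 0.05. The 6 members had a median log2 fold change of -0.21 and all tested genes one of 0.02.

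Grm2, the presynaptic group II receptor, was at 1349, 1734 and 2157 (lowest, median, highest) in the lithium libraries and at 1949, 2861 and 3325 in the vehicle libraries. All 20 lithium libraries lay below the mean of the vehicle group of their sex and genotype. Grm2 fell by 0.65 ± 0.059 on the log2 scale (SE, adjusted p = 5.42e-14), a change of -36.2%. In HT the lithium range of 1564 to 1932 did not overlap the vehicle range of 1949 to 3235, and in WT the lithium range of 1349 to 2157 did not overlap the vehicle range of 2335 to 3325. Grm2 fell by 0.55 ± 0.085 in HT (adjusted p = 3.15e-07) and by 0.75 ± 0.082 in WT (adjusted p = 4.29e-11). The genotypes differed in this change by 0.20, with a 95% interval of -0.03 to 0.44 (adjusted p = 0.832).

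The HT lithium females had 1725, 1628, 1931, 1564 and 1598 normalised counts of Grm2 and the HT lithium males 1727, 1891, 1912, 1932 and 1790. The HT vehicle females had 2399, 3235, 2614, 1949 and 2352 and the HT vehicle males 2869, 2748, 2040 and 3204. In each sex every lithium value was below every vehicle value. The WT lithium females had 1598, 2157, 2087, 1349 and 1741 and the WT lithium males 1548, 2046, 1874, 1705 and 1632. The WT vehicle females had 2702, 3184, 2763, 2335 and 3029 and the WT vehicle males 3219, 3146, 3113, 3325 and 2861. The WT groups likewise do not touch, so all 4 pairs of lithium and vehicle groups are separate for Grm2. The share of all tested genes with separate groups was not counted, here or for the groups below. Under lithium 50.6% of tested genes were called in HT and 52.9% in WT, so separation is not shown to be particular to Grm2.

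Grm3, the group II receptor of neurons and astrocytes, was at 1310, 1705 and 1999 under lithium and at 1654, 2011 and 2412 under vehicle. It fell by 0.26 ± 0.035 (adjusted p = 4.97e-09), with 17 of 20 lithium libraries below the mean of their vehicle group. The change was -0.27 ± 0.051 in HT (adjusted p = 1.05e-05) and -0.26 ± 0.049 in WT (adjusted p = 1.62e-05). The groups of males were farther apart than those of females. WT lithium males had 1556, 1537, 1757, 1624 and 1821 against 2337, 2412, 2241, 2345 and 2307 in WT vehicle males, which do not overlap. WT lithium females had 1706, 1934, 1999, 1714 and 1896 against 1679, 2163, 1818, 1955 and 1772 in WT vehicle females, which do. In males alone Grm3 fell by 0.45 over both genotypes (adjusted p = 2.88e-08), and the difference between the sexes was not tested.

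Of group III, Grm4 fell most. It was at 519.9, 736.6 and 1243 under lithium and at 689.6, 1022 and 1635 under vehicle, a fall of 0.56 ± 0.085 (adjusted p = 8.65e-08, 19 of 20 libraries). The fall was 0.46 ± 0.12 in HT (adjusted p = 0.00142) and 0.67 ± 0.12 in WT (adjusted p = 3.65e-06). In males alone it was 0.33 over both genotypes (adjusted p = 0.0197), and in HT males the value was -0.25 (adjusted p = 0.279). Grm7, the receptor of the presynaptic active zone, was at 1289, 1640 and 1898 against 1480, 1764 and 2012, and fell by 0.09 ± 0.037 (adjusted p = 0.0256, 15 of 20 libraries). Grm8, a presynaptic receptor of high glutamate affinity, was at 320.1, 470.9 and 617.7 against 406.6, 555.5 and 660.2, and fell by 0.16 ± 0.066 (adjusted p = 0.0346, 15 of 20 libraries). In males alone the Grm8 value was -0.03 (0.796), without a call, and Grm7 was at -0.17 (0.0199). The Grm7 and Grm8 ranges of lithium and vehicle libraries overlap widely, and neither gene was called within HT or within WT alone with all libraries. Without any 1 of 3 libraries Grm7 was called in HT (0.023 to 0.0456), and without any 1 of 3 others Grm8 was called in WT (0.027 to 0.0399).

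Grm5, the group I receptor, was at 5244, 5661 and 6704 under lithium and at 5145, 5739 and 6528 under vehicle. Its log2 fold change was 0.00, with a 95% interval of -0.06 to 0.07 (adjusted p = 0.948, 10 of 20 libraries above their vehicle mean). Within genotypes, 3 of 6 genes were called, all lower: Grm2, Grm3 and Grm4. In HT 24.9% of tested genes were called lower and 50.6% in either direction, and in WT 26.3% and 52.9%. For the difference between genotypes in the lithium change, 0 of 6 members and 0% of tested genes were called by limma-trend, with 0 members and 1058 genes at an unadjusted p under 0.05. DESeq2 called 0 members and 2 genes for it.

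Over the 59 libraries the GC slope had r = 0.79 with Grm2, 0.62 with Grm3, 0.61 with Grm4, 0.30 with Grm7, 0.13 with Grm8 and -0.39 with Grm5. Within groups r was 0.24, 0.16, -0.03, -0.02, -0.18 and -0.65 in the same order. The GC lean and the drug go together in these libraries, and the part of each was not tested. With a GC and length trend removed from each library, the lithium change over both genotypes was -0.40 for Grm2 (adjusted p = 3.07e-07), -0.36 for Grm3 (5.52e-12), -0.10 for Grm7 (0.0321) and -0.25 for Grm8 (0.00129), all called. Grm4, the member of highest GC content, was then at -0.19 and lost its call (0.0616), and Grm5, of low GC content, was at -0.07 and called (0.0156). Within HT, Grm4 was then at -0.08 without a call (0.663), and Grm5 (-0.13, 0.00546) and Grm8 (-0.24, 0.044) were called. Within WT, Grm4 stayed called at -0.30 (0.0432) and Grm8 was called at -0.26 (0.0221). Quantile normalisation turned Grm5 the other way over both genotypes, to a call at 0.07 (0.0367), so its sign depends on the scaling. Grm7 (-0.05, 0.204) and Grm8 (-0.14, 0.0707) lost their calls there, as they did under median centring (-0.08, 0.0743, and -0.14, 0.0562). With the GC and length slopes of the libraries as covariates, Grm2 kept its call at -0.96 (0.00363), and the other 5 had none. Single libraries decided the 2 weakest calls: Grm7 lost its call without HT lithium male replicate 5 (-0.07, 0.0587) or HT vehicle male replicate 4 (-0.08, 0.0646), and Grm8 without any 1 of 14 libraries (0.0509 to 0.0751). Without the 14 libraries of high striatal or olfactory bulb markers, Grm2 (-0.68), Grm3 (-0.28), Grm4 (-0.48) and Grm7 (-0.09) stayed called and Grm8 did not (-0.15, 0.098).

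**Figure D3:**
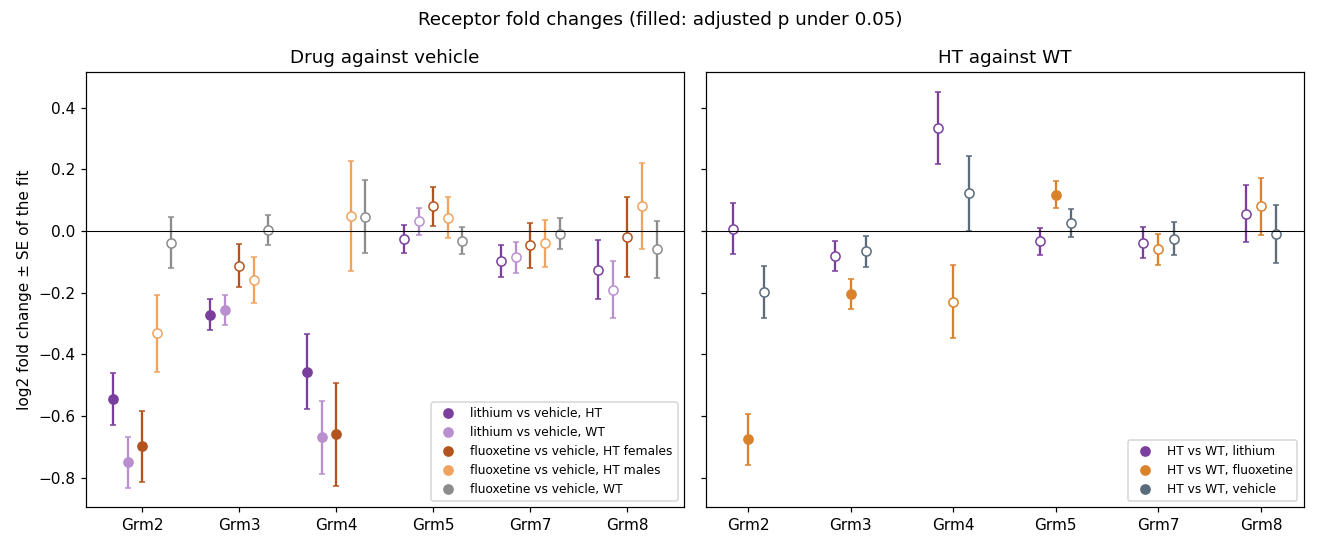
Log2 fold change ± SE of the fit (vertical axis) of each receptor gene for drug against vehicle (left) and HT against WT (right), with filled points where the adjusted p was under 0.05. Grm2, Grm3 and Grm4 lie below 0 for lithium in both genotypes, and Grm5 lies near 0 in every comparison with vehicle.

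Lithium was also set against fluoxetine (20 libraries each), a comparison that shares its lithium libraries with the one above. Grm2 (-0.37 ± 0.058, adjusted p = 3.22e-07, 15 of 20 libraries), Grm3 (-0.20 ± 0.035, adjusted p = 3.53e-06, 18 of 20) and Grm4 (-0.43 ± 0.084, adjusted p = 1.64e-05, 16 of 20) were lower under lithium. These are 3 of 6 members beside 26.2% of tested genes called lower and 53.9% in either direction. For Grm2 the 5 HT lithium females went the other way. They were at 1564 to 1931, above the HT fluoxetine female mean of 1526. Grm8 stood at -0.14 (0.0588) and gained a call without any 1 of 10 libraries (0.0175 to 0.0487). With the GC and length trend removed, Grm4 lost its call (-0.13, 0.226) and Grm5 (-0.08, 0.00688) and Grm8 (-0.23, 0.00441) gained one.

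Fluoxetine was compared with vehicle within each genotype, which asks whether it acts on the receptors and whether Naa15 changes that. In WT no receptor was called: 0 of 6 by limma-trend, edgeR or DESeq2, where limma-trend called 1.02% of tested genes. At an unadjusted limma-trend p under 0.05 were 0 members and 1992 of 17891 tested genes. Grm2 was at 2341, 2803 and 3520 in WT fluoxetine libraries and at 2335, 3071 and 3325 in WT vehicle libraries, a difference of -0.04 with a 95% interval of -0.20 to 0.13. In HT 2 of 6 were called lower, beside 16.3% of tested genes called lower and 31.2% in either direction: Grm2 by -0.52 ± 0.085 (adjusted p = 4.04e-06, 10 of 10 libraries) and Grm3 by -0.14 ± 0.051 (adjusted p = 0.0349, 9 of 10). Grm4 stood at -0.30 ± 0.12 just outside the threshold (adjusted p = 0.0506). It was called with edgeR (0.0347), DESeq2 (0.0263), quantile normalisation (0.049), a mean filter of 100 (0.0388), a fit of only the groups compared (0.0472) and the replicate block (0.0446). Under quantile normalisation Grm3 was not (-0.12, 0.0874), nor under median centring (-0.12, 0.0662).

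HT females and HT males were then taken apart. Grm2 was at 1574, 1553, 1473, 1462 and 1568 in HT fluoxetine females against 2399, 3235, 2614, 1949 and 2352 in HT vehicle females. The groups do not overlap, and the fluoxetine values lie close together. Grm2 fell by 0.70 ± 0.12 (adjusted p = 2.58e-06). Grm4 was at 674.7, 596.2, 872.3, 826.8 and 871.1 in HT fluoxetine females against 1238, 1022, 1152, 1181 and 1440 in HT vehicle females, again apart, and fell by 0.66 ± 0.17 (adjusted p = 0.00124). These were 2 of 6 members in HT females, where 19.5% of tested genes were called lower and 38.3% in either direction. With the GC and length trend removed, Grm2 stayed called (-0.43, 0.00984) and Grm4 did not (-0.28, 0.291).

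In HT males 0 of 6 receptors were called by limma-trend, edgeR or DESeq2, where limma-trend called 0.162% of tested genes. At an unadjusted limma-trend p under 0.05 were 2 members and 1544 of 17891 tested genes. Grm2 was at 1877, 1649, 2609, 2123 and 2545 in HT fluoxetine males against 2869, 2748, 2040 and 3204 in HT vehicle males. All 5 fluoxetine values lie below the vehicle mean but the groups overlap, and the difference was -0.33 with a 95% interval of -0.58 to -0.08 (adjusted p = 0.37). Grm3 was at -0.16 ± 0.074 (adjusted p = 0.534) with all 5 libraries lower. For Grm2 the sexes differed in the fluoxetine change by -0.37, with a 95% interval of -0.71 to -0.03 (adjusted p = 0.142). They differed in that of Grm4 by -0.71 ± 0.24 (adjusted p = 0.0399), 1 of 6 members beside 8.59% of tested genes called lower and 15.2% in either direction. That call ended in a fit with replicate number as a block (-0.68, 0.0526), with edgeR (-0.67, 0.054), with the GC trend removed (-0.35, 0.587) and without any 1 of 9 libraries (0.0509 to 0.144). It stayed with library number as the block, which differs from replicate number in HT vehicle males.

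Over both genotypes only Grm2 was called under fluoxetine, at -0.28 ± 0.059 (adjusted p = 0.000565, 16 of 20 libraries), beside 10.3% of tested genes called lower and 20.0% in either direction. Its fluoxetine change differed between HT and WT by -0.48 ± 0.12 (adjusted p = 0.00256). This was 1 of 6 members beside 11.7% of tested genes called lower and 20.6% in either direction for that difference. Without the 5 HT fluoxetine female libraries, HT is represented by its males: the difference was then -0.30 (0.888), and Grm2 was at -0.33 in HT (0.434) and -0.18 over both genotypes (0.307). With the GC and length trend removed, the difference was -0.29 (0.246). The Grm3 call in HT also ended without any 1 of 8 libraries (0.052 to 0.11), and Grm4 gained one in HT without any 1 of 19 (0.0171 to 0.0497). Many of these 19 were lithium or WT libraries outside the comparison. Without them the Grm4 value stayed at -0.3046, and only the shared spread and the adjustment changed.

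HT was compared with WT under each treatment, which asks what the genotype does to the receptors. Under vehicle 0 of 6 were called by limma-trend, edgeR or DESeq2, and limma-trend called 0.106% of tested genes. At an unadjusted limma-trend p under 0.05 were 1 member and 1413 of 17891 tested genes. Grm2 was at 1949, 2614 and 3235 in HT and at 2335, 3071 and 3325 in WT, a difference of -0.20 with a 95% interval of -0.37 to -0.03 (adjusted p = 0.542, 7 of 9 libraries). The other 5 lay between -0.07 for Grm3 and 0.12 for Grm4. Under lithium 0 of 6 were called by the same 3 tools, and limma-trend called 0.386% of tested genes. At an unadjusted limma-trend p under 0.05 were 1 member and 2509 of 17891 tested genes. Grm4 was at 519.9, 834.8 and 1243 in HT and at 534.5, 647.3 and 861 in WT, a difference of 0.33 with a 95% interval of 0.10 to 0.57 (adjusted p = 0.179, 9 of 10 libraries). Grm2 differed by 0.01 there.

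Under fluoxetine 3 receptors were called between HT and WT, while the ranges of the genotypes overlapped for all 6. Grm2 was at 1462, 1611 and 2609 in HT and at 2341, 2803 and 3520 in WT, lower by 0.68 ± 0.082 (adjusted p = 7.14e-09, 10 of 10 libraries below the WT mean of their sex). Grm3 was at 1637, 1778 and 2052 in HT and at 1945, 2018 and 2359 in WT, and differed by -0.20 ± 0.049 (adjusted p = 0.0009, 10 of 10). Grm5 was the only receptor called higher in any comparison, at 5454, 6095 and 6757 in HT and at 4840, 5563 and 6382 in WT, a difference of 0.12 ± 0.044 (adjusted p = 0.0348, 9 of 10). These are 3 of 6 members beside 33.3% of tested genes, 15.6% higher and 17.8% lower. Without the HT fluoxetine females, Grm2 stayed called in males (-0.53, 0.0205), and Grm3 (-0.20, 0.143) and Grm5 (0.09, 0.528) did not. The Grm5 call also ended once the GC and length trend was taken out (0.05, 0.355) and without any 1 of 6 libraries (0.0653 to 0.101).

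Over all treatments Grm2 was lower in HT by 0.29 ± 0.048 (adjusted p = 3.45e-05, 22 of 29 libraries) and Grm3 by 0.12 ± 0.029 (adjusted p = 0.00349, 24 of 29). These are 2 of 6 members beside 9.59% of tested genes called lower and 14.7% in either direction. Both stayed called without the HT fluoxetine females (Grm2 -0.24, 0.0112; Grm3 -0.12, 0.0383) and without the libraries of high striatal or olfactory markers (-0.28, 0.000253, and -0.10, 0.0242). In males alone they were at -0.22 (0.0657) and -0.14 (0.0709). Because the average includes the fluoxetine libraries, it is not independent of the difference given for them.

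Females were compared with males over all groups (30 against 29 libraries). Grm2 was at 1349, 2122 and 3235 in females and at 1548, 2545 and 3520 in males, and was lower in females by 0.18 ± 0.048 (adjusted p = 0.0175, 24 of 30 libraries). It was the 1 member called, beside 5.20% of tested genes called lower and 8.76% in either direction. The call ended without the HT fluoxetine females (-0.12, 0.375), without the libraries of high striatal or olfactory markers (-0.15, 0.143) and after removal of the GC and length trend (-0.13, 0.171).

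The proteins around the receptors were followed through 5 lists, under lithium over both genotypes. Of 13 genes of Gq transduction, the route of Grm5, 2 rose and 8 fell under lithium (median -0.185, against 0.022 for all tested genes). Over all tested genes 30.4% were lower and 63.1% called in either direction, the shares that stand beside the counts of all 5 lists. Dagla, which makes the endocannabinoid 2-arachidonoylglycerol, fell by 0.36 ± 0.031. Itpr1, the calcium release channel, fell by 0.34 ± 0.034 and Plcb3, a phospholipase C, by 0.39 ± 0.041 (adjusted p 4.03e-15 to 4.29e-12). Gnaq, the Gq alpha subunit, rose by 0.07 ± 0.028 (adjusted p = 0.0171).

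Of 17 genes of Gi/o transduction, the route of the other 5 receptors, 3 rose and 11 fell (median -0.162). Gnai2, an inhibitory alpha subunit, fell by 0.44 ± 0.023 and Gnao1, the Go alpha subunit, by 0.24 ± 0.013, while Gnai1, another inhibitory alpha subunit, rose by 0.14 ± 0.032 (adjusted p 6.08e-23, 7.82e-23 and 0.000136). Adcy3, an adenylyl cyclase, fell by 0.35 ± 0.028 and Gnb2, a beta subunit, by 0.31 ± 0.026 (adjusted p = 6.65e-16 and 3.81e-15).

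Of 16 scaffolds and binding partners, 3 rose and 10 fell (median -0.175). Elfn1 and Elfn2, adhesion proteins that bind group III receptors across the synapse, fell by 0.48 ± 0.034 and 0.37 ± 0.025 (adjusted p = 7.71e-18 and 4.91e-19). Shank1, a postsynaptic scaffold, fell by 0.45 ± 0.029 and Ncdn, neurochondrin, by 0.31 ± 0.023 (adjusted p = 2.83e-19 and 9.41e-17). Homer1, which links group I receptors to calcium stores, rose by 0.33 ± 0.065 (adjusted p = 1.64e-05), and Homer2 and Homer3 did not pass the test at 0.04 and -0.12.

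Of 11 genes of receptor desensitisation and RGS proteins, 2 rose and 7 fell (median -0.192). Arrb1, a beta-arrestin, fell by 0.24 ± 0.016, Grk2, a receptor kinase, by 0.29 ± 0.025 and Arrb2 by 0.23 ± 0.030, and Rgs2, which speeds the shut-off of Gq, rose by 0.27 ± 0.036 (adjusted p 2.59e-19 to 4.29e-09). Of 9 genes of glutamate supply and clearance, 1 rose and 5 fell (median -0.071). Slc17a7, the cortical vesicular glutamate transporter, fell by 0.23 ± 0.033, Slc1a2, the astrocytic glutamate transporter, by 0.20 ± 0.035 and Glul, glutamine synthetase, by 0.14 ± 0.034 (adjusted p 1.39e-08 to 0.000381).

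For HT against WT under vehicle, 0 genes of each of the 5 lists passed the limma-trend test in either direction, with 9 of the 66 genes at an unadjusted p under 0.05. The same held for fluoxetine against vehicle in WT, with 7 of 66 at an unadjusted p under 0.05. Of 17891 tested genes, 1413 and 1992 were at an unadjusted p under 0.05 in the same order. The shares called were 0.106% and 1.02%. Other tools were not run on the lists. Under fluoxetine HT was lower in 5 and higher in 0 of the 13 Gq genes, lower in 6 and higher in 3 of the 17 Gi/o genes, and lower in 7 and higher in 2 of the 16 partners. It was lower in 3 and higher in 1 of the 11 desensitisation and RGS genes, and lower in 3 and higher in 0 of the 9 supply and clearance genes. Over all tested genes 17.8% were lower and 15.6% higher. Plcb3 was lower by 0.37 ± 0.058, Gnai2 by 0.26 ± 0.031 and Shank1 by 0.35 ± 0.041 (adjusted p = 1.49e-06, 5.84e-09 and 3.06e-09). The 5 HT fluoxetine female libraries stand on the lithium side of the first principal component, and the part of that in these counts was not tested.

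**Figure D4:**
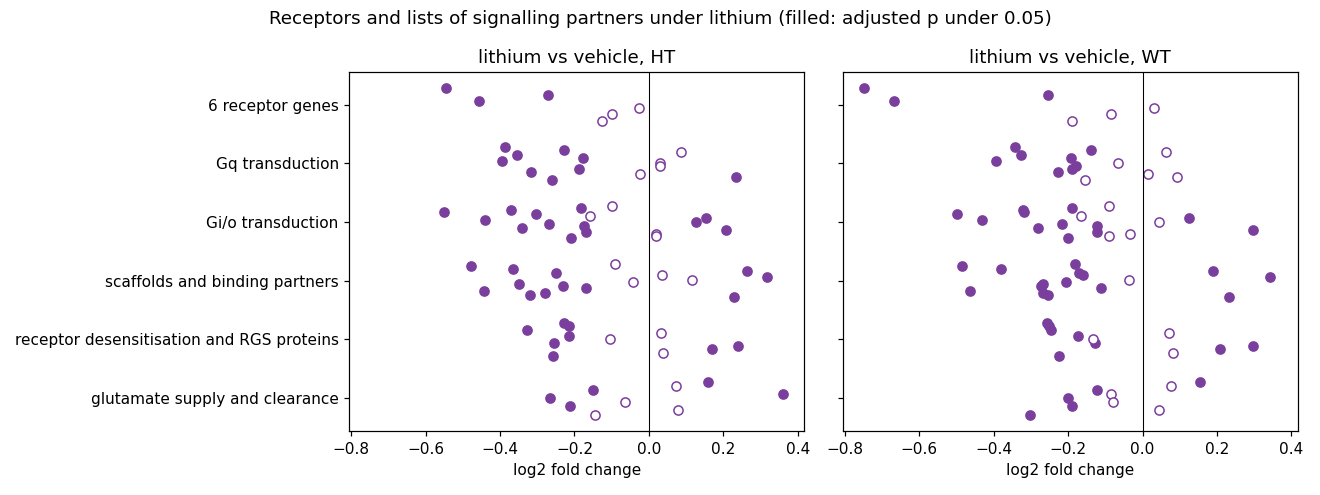
Log2 fold change (horizontal axis) under lithium in HT (left) and WT (right) for the 6 receptor genes and for the genes of 5 lists of signalling partners, 1 point per gene, filled where the adjusted p was under 0.05. Most filled points lie below 0 in both panels, and each partner list has at least 1 point above 0.

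Finally the receptors were followed within groups, where neither genotype, treatment nor sex varies, as correlations of log2 values less the group mean over 59 libraries. The libraries share dissection and depth effects, so these values describe the libraries. Grm4 varied with the summed interneuron markers (r = 0.88) and against the excitatory neuron markers (-0.71), and its nearest genes were Syt6 (0.91), Syt10 (0.89) and Slc32a1 (0.88), the vesicular GABA transporter. It also varied with the olfactory bulb markers (0.67) and striatal markers (0.52). Grm3 had the opposite profile, -0.76 with interneuron, 0.67 with excitatory neuron and 0.00 with astrocyte markers. Its nearest genes were Tmem44 (0.82), Abhd2 (0.81) and Nwd2 (0.80).

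Grm2 varied against the oligodendrocyte (-0.79), oligodendrocyte precursor (-0.66) and striatal (-0.66) markers, and with the excitatory neuron markers (0.56). Its nearest genes were Crhr1 (0.89), a receptor of corticotropin-releasing hormone, Ptgfrn (0.85) and Sertm1 (0.84). Grm8 varied with interneuron markers (0.69) and against microglial (-0.74) and endothelial markers (-0.64), with Zfp385b, Klhl1 and Sema3e nearest (0.85 each). Grm7 was nearest to Cnksr2, Tmem178b and Epha4 (0.82 each), and Grm5 to Myo9a (0.78), Appl1 (0.78) and Gdap1 (0.77). Among the receptors themselves Grm4 and Grm8 varied together (0.64), as did Grm3 and Grm7 (0.62), Grm5 and Grm7 (0.51) and the group II pair (0.50), while Grm3 and Grm4 varied against each other (-0.64). Grm7 of group III lay nearer to Grm3 and Grm5 than to Grm4 (-0.34) or Grm8 (0.12). Nearest genes were taken from 12464 genes with a mean of at least 100.

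**Figure D5:**
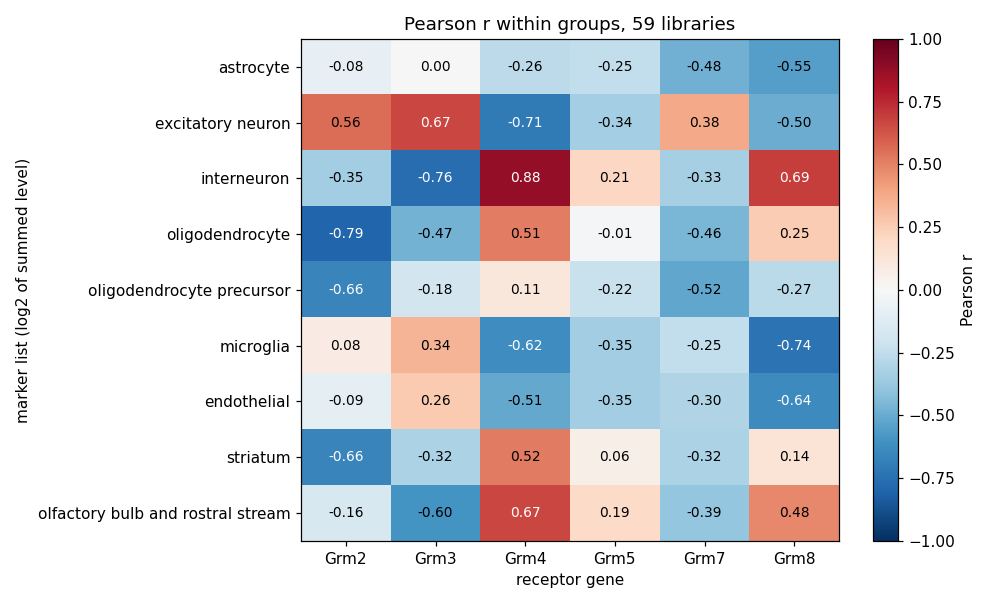
Pearson r within groups, over 59 libraries, between the log2 level of each receptor gene (columns) and the log2 summed level of each marker list (rows), from -1 in blue to 1 in red. Grm4 has its highest value, 0.88, with interneuron markers, and Grm2 its lowest, -0.79, with oligodendrocyte markers.

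The marker sums also moved with treatment. The 8 excitatory neuron markers summed to 123500 to 164200 in lithium libraries (median 147600) and to 138400 to 202300 in vehicle libraries (median 182300), with 1 marker called higher and 6 lower. The 8 interneuron markers summed to 19300 to 28700 (median 21840) and 19570 to 29350 (median 22820), with 2 higher and 3 lower. The 7 oligodendrocyte markers summed to 42560 to 179700 (median 109800) and 40780 to 227700 (median 117400), with 0 higher and 1 lower. The 5 oligodendrocyte precursor markers summed to 4203 to 7217 (median 5919) in lithium libraries and to 6115 to 9612 (median 6811) in vehicle libraries, with 0 higher and 3 lower and a median log2 fold change of -0.382. The 6 endothelial markers summed to 5112 to 7771 (median 5752) and 5557 to 8033 (median 6595), with 1 higher and 4 lower (median -0.379). Of the astrocyte markers 1 was higher and 4 of 8 lower, of the microglial 2 higher and 2 of 6 lower, of the striatal 0 higher and 1 of 7 lower, and of the 8 olfactory bulb markers 0 were called. Beside these lithium counts stand 30.4% of all tested genes called lower and 63.1% in either direction. Under fluoxetine the excitatory neuron markers summed to 137100 to 178400 in HT (median 152600) and to 164300 to 210900 in WT (median 185800), with 1 higher and 5 lower, and the oligodendrocyte markers to 54920 to 181000 (median 134200) and 41940 to 167300 (median 89650), with 0 called. There the astrocyte markers had 4 of 8 lower, the endothelial 4 of 6 lower, and the precursor and microglial lists 2 lower each. Beside these called counts for HT against WT under fluoxetine stand 17.8% of all tested genes called lower and 15.6% higher. Of the 8 interneuron markers 4 had an unadjusted limma-trend p under 0.05 in that comparison, in directions not reported here. So did 7537 of 17891 tested genes, so that count is not read as a shift. Of the olfactory bulb markers 2 of 8 were at 0 in some library, and no marker of the other lists was. The part of these shifts in the receptor values was not tested.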

How the data were processed

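RNA-seq libraries of 59 mice were analysed. The authors deposited 1 table of a normalised signal, gene counts divided by 1 size factor per library. Per the submitters' processing notes Salmon 0.11.2, R 3.6.0, DESeq2 1.19.11 and GRCm38 were used, in roles not given in the sources used here. Size factors (0.8272 to 1.129) were read from the step between values, and 100% of values were whole reads within 0.01 read. No column was left out.

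Log2(value + 1) was tested by limma-trend with limma 3.58.1 in R 4.3.3, using 12 group means, 47 residual degrees of freedom and equally weighted contrasts for 17 comparisons, two-sided. The test was also run on simulated independent counts. Those carried no GC or length lean and no mixed tissue, so that run cannot speak to either. Alternatives were edgeR 4.0.16 and DESeq2 1.42.0 on recovered reads, other scalings, filters and constants, and a block by replicate number or by library number. Others were males only, a GC and length trend removed (spline, 5 degrees of freedom) or slopes as covariates, and leaving out libraries. Leaving out libraries of high striatal or olfactory markers was chosen after seeing the data. The receptors, gene lists and tests were chosen with earlier results of these data known. Named were the 6 receptors, Naa15, up to 4 called genes of smallest p per list (Gnaq, Gnai1, Homer1, Homer2 and Homer3 were added after their values were seen, and some genes the rule names are not reported here) and the 3 genes most like each receptor. Same-numbered libraries did not deviate together (mean r of residuals 0.0104), so numbers were not taken as pairs. No duplicated library was found. Symbols came from GENCODE M21 (18077 identifiers matched). The figures were drawn with matplotlib 3.10.9 in Python 3.11.15. A "rise" or "fall" is a call.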

Additional observations from a re-analysis of the deposited data

Results flagged for a closer look

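In 4 of the 72 sets of 4 or 5 libraries (6 genes in 12 groups), 1 value lay far from the others of its group, where chance flags about 1 in 20. Grm3 was at 2253 in WT fluoxetine female replicate 5, against 1945 to 1996 in the other 4. In the same library Grm7 was at 1798, against 1689 to 1701. Grm4 was at 1401 in WT fluoxetine male replicate 5, against 877.6 to 973.8. Grm5 was at 6757 in HT fluoxetine female replicate 2, against 5883 to 6133, and without that library the Grm5 difference between HT and WT under fluoxetine lost its call (0.10, adjusted p = 0.0815).

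The fluoxetine change of Grm2 differed between HT and WT by -0.48 (adjusted p = 0.00256), and that of Grm4 differed between HT females and HT males by -0.71 (adjusted p = 0.0399), both by a test of the difference itself with limma-trend. Both use the HT fluoxetine female libraries, which stood with the lithium libraries on the first principal component and had a median mitochondrial share of 7.57%, against 5.84% in the 34 libraries on the other side. With the GC and length trend removed, the differences were -0.29 (adjusted p = 0.246) for Grm2 and -0.35 (0.587) for Grm4, and the part of the mitochondrial share was not tested.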

How the results depend on the processing

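Across the alternatives, 7674 receptor values kept their side of the threshold and, where called, their direction. Another 52 gained a call, 85 lost one and 7 changed direction. Of the 7674, 5944 came from leaving out 1 library, often 1 outside the comparison, where little could change, and 1730 from other settings. The counts of called receptors that moved by over 1.5 times follow, with causes not tested unless named. Median centring left 3 of 6 receptors called for lithium over both genotypes (5 in the report) and 1 for fluoxetine in HT (2). Without the HT fluoxetine females, 1 stayed called for HT against WT under fluoxetine (3) and 0 for fluoxetine over both genotypes (1), fluoxetine in HT (2), the genotype difference in the fluoxetine change (1) and female against male (1). In males only, where fewer libraries were fitted, 1 stayed called for HT against WT under fluoxetine, and 0 for HT against WT over all treatments (2), fluoxetine over both genotypes, fluoxetine in HT and the genotype difference. With the GC and length trend removed, 1 stayed called for fluoxetine in HT females (2) and 0 for the genotype difference, the sex difference in HT (1) and female against male, and Grm5 turned to -0.0716 for lithium over both genotypes. With the slopes as covariates, 1 stayed called for lithium over both genotypes, in WT and in HT, lithium against fluoxetine, HT against WT under fluoxetine, fluoxetine in HT and in HT females, and 0 for the sex difference. There Grm4 turned to 0.1354 for lithium over both genotypes, 0.0558 in WT, 0.215 in HT, 0.073 against fluoxetine and 0.0326 for fluoxetine in HT females, and Grm8 to 0.1336 for lithium over both genotypes. Without the libraries of high striatal or olfactory markers, 2 were called for the genotype difference and 0 for female against male.

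Replicate numbers did not pair libraries: with the replicate block, 0 receptors were called for the sex difference in the fluoxetine change in HT, and 3 (2 in the report) for fluoxetine in HT, where Grm4 was added. No other count changed under it. edgeR also called 0 for the sex difference. With library number as the block, which differs from replicate number in HT vehicle males, all 102 receptor values kept their side of the threshold. Smaller changes were as follows. Grm4 was also called for fluoxetine in HT with edgeR, DESeq2, quantile normalisation, the mean filter and only the groups compared. Fitting only the groups compared also called Grm4 for HT against WT under fluoxetine (-0.23, 0.0481) and Grm7 for lithium in WT (-0.09, 0.0389), and lost Grm8 for lithium over both genotypes (0.0523). Quantile normalisation called Grm5 for fluoxetine in HT females (0.15, 0.0497). Leaving out 1 library at a time, the count was 3 to 5 for lithium over both genotypes, 3 to 4 for lithium in WT, in HT and against fluoxetine, 1 to 3 for fluoxetine in HT, 2 to 3 for HT against WT under fluoxetine and 0 to 1 for the sex difference. The Grm8 call for lithium ended without any of 14 libraries: HT lithium female 5, HT lithium male 1 and 2, HT vehicle female 5, HT vehicle male 2 and 4, WT lithium female 2 and 5, WT lithium male 3 and 4, WT vehicle female 1 and 5, and WT vehicle male 3 and 4. The Grm5 call ended without HT fluoxetine female 2, HT fluoxetine male 1 or 2, WT fluoxetine female 5, or WT fluoxetine male 2 or 4. The Grm3 call in HT ended without HT fluoxetine female 3 or 4, HT fluoxetine male 1 or 2, HT vehicle female 1 or 2, or HT vehicle male 1 or 4. The Grm4 sex difference ended without HT fluoxetine female 1 or 2, HT fluoxetine male 2 or 5, HT vehicle female 1, 4 or 5, or HT vehicle male 1 or 4.

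Over all genes, 11287 were called for lithium over both genotypes and 2068 with the slopes as covariates. HT against WT under fluoxetine had 5966, 251 without the HT fluoxetine females and 2320 with the trend removed. The genotype difference in the fluoxetine change had 3692, 0 and 333 in the same order, and female against male had 1567 and 27 without the HT fluoxetine females. HT against WT under vehicle had 19 and, with DESeq2, 30. For the sex difference in HT, 1495 genes were called higher and 1295 lower under quantile normalisation, against 1179 and 1537 in the report's fit. Counting error was small beside the spread within groups for all 6 receptors, so depth was not the limit.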
